A study of Mus musculus with 16 samples.

Results

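To ask what loss of 1 copy of Arid1b changes in the adult cortex whatever the early treatment, the medial prefrontal cortex (mPFC) transcriptomes of all 8 heterozygous (HT) mice were compared with those of all 8 wild-type (WT) mice. Samples were assigned by the genotype in their titles, so the comparison used 16 of the 16 samples of the series. All mice were C57BL/6N males, and each gave 1 sample at postnatal day 120. WT-Veh and HT-Veh pups were reared by dams that drank 0.2% saccharin water from postnatal day 3 to 21, and WT-Flx and HT-Flx pups by dams whose saccharin water held 0.1 mg per ml of fluoxetine, an antidepressant that blocks serotonin reuptake. There were 4 mice in each of the 4 groups, and all had been off treatment since weaning. HT mice carried 1 Arid1b allele truncated by genome editing at exon 5, in every cell of the body. The labels do not say which mice shared a dam. Values are normalized read counts, and differences are HT minus WT on the log2(value + 1) scale with treatment as a term in the fit.

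ARID1B is a DNA-binding subunit of the SWI/SNF (BAF) complex, which uses ATP to slide and evict nucleosomes and so opens enhancers and promoters for transcription. The complex holds either ARID1A or ARID1B, and loss of 1 copy of ARID1B in people causes a disorder with intellectual disability and often autism. In cortical neurons, BAF complexes work with activity-regulated factors such as AP-1 at enhancers.

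All libraries carried the cortical glutamatergic marker Slc17a7, the vesicular glutamate transporter of cortical projection neurons, at 32160 to 43460 normalized counts. They differed in RNA of the olfactory bulb and, as given below, in striatal markers. The mean log2(value + 1) of 9 bulb markers was 6.45 ± 2.26 in WT and 4.78 ± 1.21 in HT mice (SD, n = 8 each). This score was between 7.29 and 9.50 in 5 libraries, against 3.78 to 5.03 in the other 11. The 5 were replicate 1 of WT-Veh, replicates 1, 2 and 4 of WT-Flx and replicate 4 of HT-Veh. Eomes, which marks the projection neurons of the bulb, had its lowest value, 0, in replicate 3 of HT-Flx and its highest, 899, in replicate 1 of WT-Veh, and Cdhr1, another gene of these neurons, from 63.3 to 3485. Since 4 of the 5 libraries were WT, the genes that passed, Arid1b and the gene lists are also given with this score as a covariate or without the 5 libraries. Without them the fluoxetine arm holds a lone WT mouse, which is assumed to vary like the others. Striatal neuron markers differed between libraries as well. Their mean log2(value + 1) ran from 6.89 in HT-Veh replicate 3 to 9.82 in HT-Veh replicate 4. This mean was 7.21 in WT-Veh replicate 1, which had the highest bulb score, and no fit has it as a term.

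**Figure D1:**
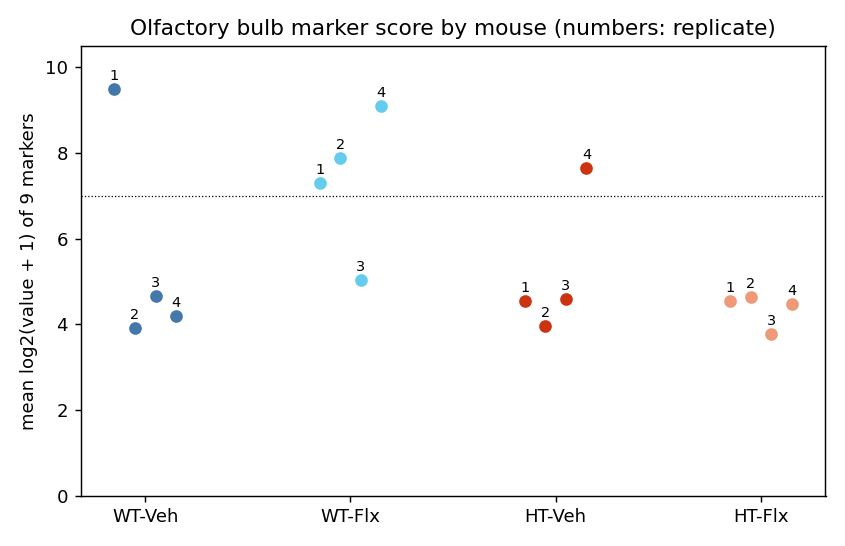
Olfactory bulb score of each mouse, the mean log2(value + 1) over 9 marker genes (vertical axis), in the 4 groups, with the replicate number beside each point. The dotted line at 7 separates 5 libraries, 4 of them WT, from the other 11, which lie at 3.78 to 5.03.

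Arid1b itself (ENSMUSG00000069729, GRCm38 chromosome 17, 4994332 to 5347656, plus strand) was examined first, since it checks the genotype labels. Its normalized read counts in replicates 1 to 4 were 1787, 2453, 2831 and 2401 in WT-Veh, 1902, 2433, 2255 and 2047 in WT-Flx, 2005, 1753, 1802 and 1619 in HT-Veh, and 1669, 1661, 1671 and 1545 in HT-Flx. All 8 HT mice lay below the WT median of 2328, and 6 lay below the lowest WT mouse, WT-Veh replicate 1. The mean was 2264 ± 340 in WT and 1715 ± 141 in HT mice (SD, n = 8 each). The log2 difference was -0.39 (SE 0.080), nearly equal in vehicle mice (-0.38, SE 0.13) and fluoxetine mice (-0.39, SE 0.097). By itself it passed an exact permutation test, two-sided, with genotype permuted within treatment (p = 0.00122, where 0.000408 is the smallest possible). Over all genes its limma adjusted p was 0.0969, so it did not pass there. It passed with the bulb score as a covariate (-0.48, adjusted p 0.0298), without the 5 libraries (-0.46, adjusted p 0.0152) and without WT-Veh replicate 1 alone (-0.45, adjusted p 0.0101). It did not pass in any other fit that left out 1 mouse (adjusted p 0.0789 to 0.226). The value counts the reads of both alleles and is no measure of the protein.

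Across the transcriptome the genotype difference was small in number. Of 17567 genes tested, 5 rose in HT mice (0.0285%) and 2 fell (0.0114%) at an adjusted p under 0.05 in limma. At an unadjusted p under 0.05 there were 1128 genes on the higher side (6.42%) and 955 on the lower side (5.44%), and these became 504 and 451 with the bulb score as a covariate. In either direction the share of all genes was 11.9%, and 5.4% with the covariate. Counts of list members under the covariate are to be read against that lower share. The genes that rose were Otof, Pdyn, Tnfrsf8, Wfs1 and the pseudogene Tmem181b-ps, and those that fell were Gm48583 and Gm48678, neither of which codes for a protein. The 8 HT and 8 WT mice did not overlap at all for 15 genes with HT above WT (0.0854%) and 8 genes with HT below WT (0.0455%), and Otof, Pdyn and Tmem181b-ps were among the former.

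**Figure D2:**
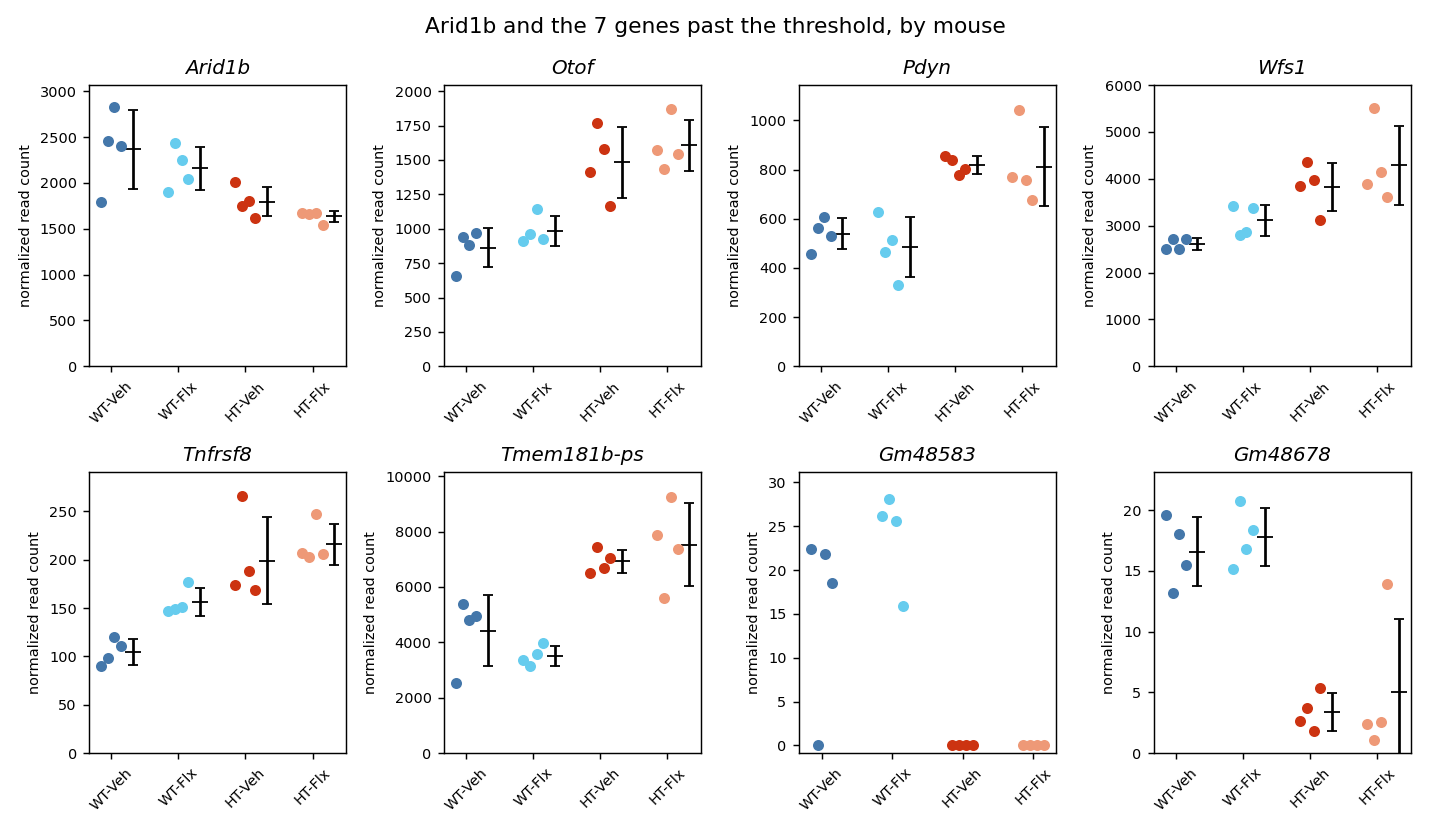
Normalized read counts (vertical axes, from 0) of Arid1b and of the 7 genes that passed, 1 point per mouse in replicate order, with the mean and SD of each group of 4 beside the points (not drawn for Gm48583, which is listed at 0 in 9 mice, and with the HT-Flx bar of Gm48678 ending at the axis). All 8 HT mice exceed all 8 WT mice in Otof, Pdyn and Tmem181b-ps, while Arid1b lies lower in HT mice with overlap.

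Otof encodes otoferlin, a large membrane protein with several C2 domains that senses calcium and drives vesicle release at the ribbon synapses of inner hair cells. The gene (ENSMUSG00000062372, GRCm38 chromosome 5, 30367062 to 30461932, minus strand) was at 655, 932 and 1142 normalized counts in the lowest, median and highest WT mouse and at 1163, 1560 and 1869 in HT mice. The lowest HT mouse, HT-Veh replicate 4, was thus just above the highest WT mouse, WT-Flx replicate 3. Otof rose by a log2 difference of 0.74 (SE 0.095, adjusted p 0.00556 in limma), a fold change of 1.68. The difference was 0.78 in vehicle and 0.71 in fluoxetine mice. It passed in each of the 16 fits that left out 1 mouse (0.68 to 0.79), with the bulb score as a covariate (0.60, adjusted p 0.00435) and without the 5 libraries (0.67, adjusted p 0.0152). Within 1 treatment alone, with 8 mice, it did not pass (adjusted p 0.419 for vehicle and 0.0610 for fluoxetine).

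Pdyn encodes prodynorphin, the precursor of the dynorphins, opioid peptides that act on the kappa opioid receptor. The gene (ENSMUSG00000027400, chromosome 2, 129686565 to 129699844, minus strand) was at 333, 522 and 626 in the lowest, median and highest WT mouse and at 678, 789 and 1044 in HT mice, again with no overlap. It rose by 0.68 (SE 0.11, limma adjusted p 0.0350), by 0.61 in vehicle and 0.76 in fluoxetine mice. The 4 HT-Veh mice were close together, at 778 to 856. The call was less firm than that of Otof, since it held in 6 of the 16 fits that left out 1 mouse (adjusted p up to 0.0920, without HT-Veh replicate 1), and it was lost with the bulb score as a covariate (0.58, adjusted p 0.105) and without the 5 libraries (0.57, adjusted p 0.130).

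Tnfrsf8 encodes CD30, a member of the tumour necrosis factor receptor family best known from activated lymphocytes. The gene (ENSMUSG00000028602, chromosome 4, 145267137 to 145315164, minus strand) was low, at 89.8, 133.9 and 177 in the lowest, median and highest WT mouse and at 169, 205 and 266 in HT mice. The genotypes overlapped only through WT-Flx replicate 4, at 177, which exceeded HT-Veh replicates 1 and 4, while within each treatment every HT mouse was above every WT mouse. Tnfrsf8 rose by 0.68 (SE 0.12, adjusted p 0.0350), by 0.90 in vehicle and 0.46 in fluoxetine mice. Its interaction between genotype and treatment did not pass (adjusted p 0.998).

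Wfs1 encodes wolframin, a membrane protein of the endoplasmic reticulum whose loss causes Wolfram syndrome. The gene (ENSMUSG00000039474, chromosome 5, 36966104 to 36989205, minus strand) was at 2506, 2762 and 3417 in the lowest, median and highest WT mouse and at 3123, 3937 and 5513 in HT mice. Only HT-Veh replicate 4, a library rich in bulb RNA, lay within the WT range. Wfs1 rose by 0.50 (SE 0.084, adjusted p 0.0350), by 0.54 in vehicle and 0.45 in fluoxetine mice. Without the 5 libraries the difference was 0.60, with an adjusted p of 0.0732. With the bulb score as a covariate, the adjusted p was 0.105 for both Tnfrsf8 (0.66) and Wfs1 (0.47). Of the 16 fits that left out 1 mouse, Tnfrsf8 passed in 6 and Wfs1 in 5, with adjusted p up to 0.0943 without HT-Veh replicate 3 and 0.118 without WT-Veh replicate 3.

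To show the sequence at the start of protein-coding genes that rose, 1 RefSeq promoter each of Pdyn, Tnfrsf8 and Wfs1 (GRCm38.p6) is given, from 250 bases before the start site to 50 bases after it, on the strand of the gene. Otof, which also rose, had no entry among the RefSeq promoters used and is not covered here. The promoters shown were searched on both strands for the AP-1 letters TGANTCA, the cyclic AMP response element TGACGTCA, the E-box CACGTG and the TATA letters TATAAA, and capitals mark the matches.
Pdyn, chr2:129699889-129700188, minus strand: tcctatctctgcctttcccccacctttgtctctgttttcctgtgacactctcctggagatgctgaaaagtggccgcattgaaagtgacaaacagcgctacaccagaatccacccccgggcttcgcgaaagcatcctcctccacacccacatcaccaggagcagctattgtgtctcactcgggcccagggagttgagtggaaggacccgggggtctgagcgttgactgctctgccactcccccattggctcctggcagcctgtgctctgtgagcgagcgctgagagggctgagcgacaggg
Tnfrsf8, chr4:145315115-145315414, minus strand: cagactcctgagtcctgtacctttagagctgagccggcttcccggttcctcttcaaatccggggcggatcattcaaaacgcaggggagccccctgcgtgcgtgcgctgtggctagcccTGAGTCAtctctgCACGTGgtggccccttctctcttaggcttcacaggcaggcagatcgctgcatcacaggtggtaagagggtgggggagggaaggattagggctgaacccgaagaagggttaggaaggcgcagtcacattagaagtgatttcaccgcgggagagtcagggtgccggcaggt
Wfs1, chr5:36988933-36989232, minus strand: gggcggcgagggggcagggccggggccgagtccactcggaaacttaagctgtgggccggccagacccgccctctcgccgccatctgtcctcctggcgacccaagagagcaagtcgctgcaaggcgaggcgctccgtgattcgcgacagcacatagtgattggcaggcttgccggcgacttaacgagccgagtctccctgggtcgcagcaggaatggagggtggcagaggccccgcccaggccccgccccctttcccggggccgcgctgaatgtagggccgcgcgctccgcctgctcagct
The Tnfrsf8 promoter held 1 AP-1 match and 1 E-box match, neither of which overlaps the other. The Pdyn and Wfs1 windows held none of the 4 motifs. RefSeq gives a second start site for Pdyn, whose window (chr2:129698609-129698908, minus strand) is not printed and held none of them either. Among all 32851 promoters of the table, 7.81% held the AP-1 letters, 1.79% the cyclic AMP response element, 7.15% the E-box and 13.6% the TATA letters, and the matches are a description only. The Wfs1 window was 70% G and C, the Pdyn windows 59% and 44.3%, and the Tnfrsf8 window 59.3%.

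The gene with the largest fall was Gm48583 (ENSMUSG00000114277, chromosome 13, 60641790 to 60642009, plus strand), a processed pseudogene. It was listed at 0 in all 8 HT mice. The WT-Veh mice had 22.4, 0, 21.8 and 18.5 in replicate order, and the WT-Flx mice had 26.2, 28.1, 25.7 and 15.9, so that 7 of 8 WT mice and no HT mouse had a value above 0. It passed with a limma adjusted p of 0.0108, and no fold is given, because a gene listed at 0 may only have lost its reads in the estimation. Its annotated transcript of 220 bases is shown because its whole sequence recurs in another gene.
Gm48583, chr13:60641790-60642009, plus strand, GENCODE transcript: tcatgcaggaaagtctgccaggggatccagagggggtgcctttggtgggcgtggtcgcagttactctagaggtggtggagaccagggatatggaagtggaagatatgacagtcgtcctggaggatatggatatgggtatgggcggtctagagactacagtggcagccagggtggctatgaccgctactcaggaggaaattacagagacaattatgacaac
Each of its 190 distinct stretches of 31 bases is also found in transcripts of Rbm3, a cold-induced RNA-binding protein, and 4 of the 11 Rbm3 transcripts hold the 220 bases unbroken. Reads from this stretch could therefore be counted for either gene, and the value of Gm48583 is uncertain. Rbm3 was at 3372 ± 283 in WT and 3175 ± 259 in HT mice (SD, n = 8 each), a difference of -0.086 (SE 0.061) that did not pass (adjusted p 0.560). The call for Gm48583 held with the bulb score as a covariate (adjusted p 0.0404) and was lost without WT-Flx replicate 2 (adjusted p 0.0509) and without the 5 libraries (adjusted p 0.284).

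Gm48678 (ENSMUSG00000111971, chromosome 12, 4595340 to 4655888, minus strand) is annotated as an antisense transcript. It was at 13.2, 17.4 and 20.8 in the lowest, median and highest WT mouse and at 1.05, 2.61 and 13.9 in HT mice. All HT mice but HT-Flx replicate 4 lay at 5.38 or less, below every WT mouse. Its log2 difference was -2.07 (SE 0.34, adjusted p 0.0350), with -2.05 in vehicle and -2.09 in fluoxetine mice. Of its 31-base stretches, 27.1% also occur in Itsn2, a scaffold of endocytosis, which differed by 0.084 (SE 0.072, adjusted p 0.628). At values this low the size of the difference depends on the pseudocount. The call held in 4 of the 16 fits that left out 1 mouse (adjusted p up to 0.100, without WT-Veh replicate 3), and it was lost with the bulb score as a covariate (-1.93, adjusted p 0.105) and without the 5 libraries (-2.12, adjusted p 0.284).

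Tmem181b-ps (ENSMUSG00000096780, chromosome 17, 6438524 to 6467022, minus strand), a transcribed pseudogene, lies 1.09 Mb past the 3′ end of Arid1b. It was at 2520, 3771 and 5385 in the lowest, median and highest WT mouse and at 5607, 7217 and 9252 in HT mice, with no overlap. It rose by 0.90 (SE 0.14, adjusted p 0.0197), by 0.70 in vehicle and 1.09 in fluoxetine mice. With the bulb score as a covariate the difference was 0.71 (adjusted p 0.0404), and without the 5 libraries it was 0.66 (adjusted p 0.180). The call was also lost without WT-Flx replicate 2 (adjusted p 0.0733) and without WT-Flx replicate 3.

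Near it, Tmem181c-ps, Tmem181a and Dynlt1c were also higher in HT mice without passing over both treatments. Tmem181c-ps was at 57.2 to 212 in WT and 187 to 298 in HT mice (1.16, SE 0.23, adjusted p 0.0786), and its difference was 0.71 without the 5 libraries. Tmem181a, a transmembrane protein gene, was at 2262 to 3450 in WT and 3522 to 4044 in HT mice, with no overlap (0.35, SE 0.072, adjusted p 0.0969). Dynlt1c, a dynein light chain gene, was at 69.0 to 133 in WT and 131 to 219.6 in HT mice (0.80, SE 0.16, adjusted p 0.0786). With the bulb score as a covariate, Tmem181c-ps was at 0.81, Tmem181a at 0.25 and Dynlt1c at 0.76. Without the 5 libraries, Tmem181a was at 0.25 and Dynlt1c at 0.57. Dynlt1b differed by 0.37 and Dynlt1f by -0.20 (adjusted p 0.338 and 0.467). Reads can be divided among these copies, since 52.6% of the 31-base stretches of Tmem181b-ps occur in Tmem181a, 77.8% of those of Tmem181c-ps in Tmem181b-ps and 81.1% of those of Dynlt1c in Dynlt1f. Of the 44 genes tested within 5 Mb of Arid1b, 1 rose and none fell at the adjusted threshold. At an unadjusted p under 0.05, 9 were on the higher side (20.5%, against 6.42% of all genes) and 4 on the lower side (9.09%, against 5.44%), and the median difference was 0.034. These counts were 7 and 1 with the bulb score as a covariate. Zdhhc14, at 0.14 Mb, differed by 0.16 and Rps6ka2, a ribosomal S6 kinase gene at 1.82 Mb, by 0.30 (0.18 without the 5 libraries), and neither passed.

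**Figure D3:**
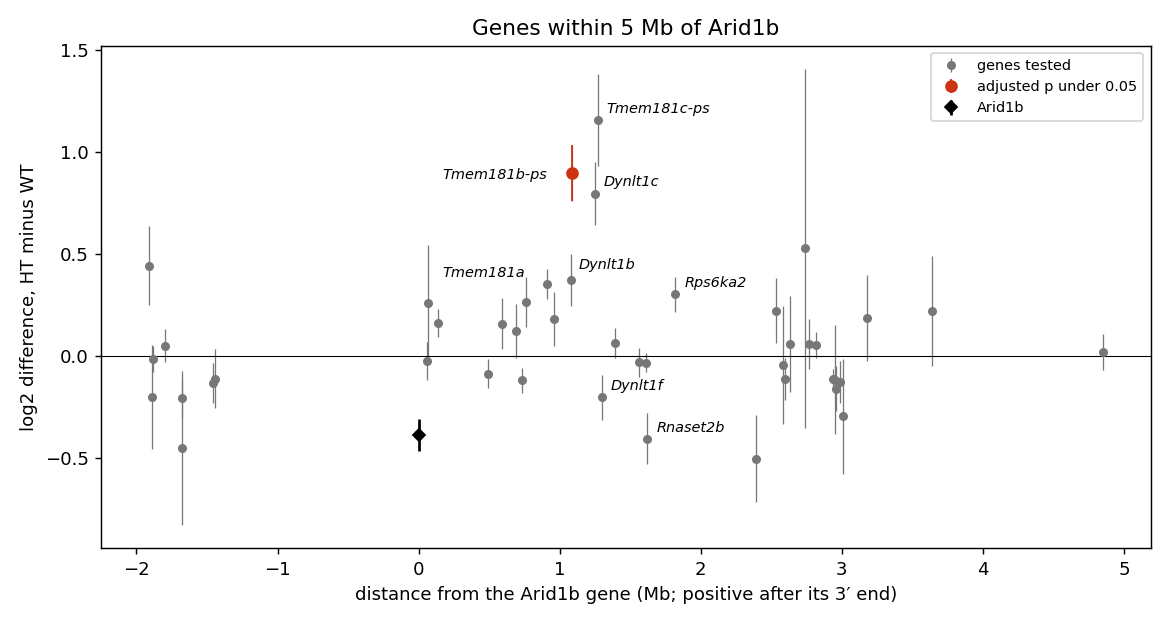
Log2 difference, HT minus WT (vertical axis, bars are SE), of the 44 genes tested within 5 Mb of Arid1b against their distance from the gene in Mb. Tmem181b-ps, at 1.09 Mb, is the gene that passed, and Tmem181c-ps and Dynlt1c lie beside it at 1.16 and 0.80.

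The genes next in order by p did not pass, and they are given by their values. Apart from Esr1, Arid1b, Nrep, Fbxw10, Kcnab3 and Bckdhb, they were chosen after their values were seen. Esr1, which encodes estrogen receptor alpha, was at 47.6, 64.9 and 95.2 in the lowest, median and highest WT mouse and at 93.2, 143.9 and 208 in HT mice, a difference of 1.04 (SE 0.19, adjusted p 0.0514). HT-Flx replicate 3 alone overlapped the WT range. Myl4, a myosin light chain gene, was at 370.3 to 661 in WT and 651 to 907 in HT mice (0.61, SE 0.11, adjusted p 0.0514), and it passed without the 5 libraries (0.68, adjusted p 0.0152). Smad3, which carries transforming growth factor beta signals to the nucleus, was at 1460 to 2074 in WT and 2088 to 2786 in HT mice, with no overlap (0.36, SE 0.069, adjusted p 0.0786). With the bulb score as a covariate, Esr1 was at 1.04, Myl4 at 0.53 and Smad3 at 0.28.

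Several of these genes have known places in synapses and signalling. Ddn encodes dendrin, a protein of dendrites and the postsynaptic density, and was at 30520 to 36660 in WT and 38490 to 45790 in HT mice (0.27, SE 0.053, adjusted p 0.0786). Its difference was 0.28 in vehicle and 0.27 in fluoxetine mice. Ptgdr, a receptor for prostaglandin D2, was at 19.9 to 33.3 in WT and 36.9 to 62.5 in HT mice (0.76, SE 0.15, adjusted p 0.0888). Ccdc88c, whose product binds Dishevelled in Wnt signalling, was at 908 to 1361 and 1403 to 2010 (0.46, SE 0.095, adjusted p 0.0969). Ccdc3 differed by 0.58 (SE 0.11, adjusted p 0.0596), by 0.80 in vehicle and 0.36 in fluoxetine mice, and Trp53i11 by 0.36 (SE 0.069, adjusted p 0.0786). With the bulb score as a covariate, Ddn was at 0.27, Ptgdr at 0.76, Ccdc88c at 0.35, Ccdc3 at 0.60 and Trp53i11 at 0.37. Ccdc88c was at 0.29 without the 5 libraries. Reads of 2 of these genes may be shared with another gene, since 67.1% of the 31-base stretches of Ccdc3 occur in Gm26776 and 26.2% of those of Ptgdr in Gm16976. Ankrd63 did not pass (0.30, SE 0.14, adjusted p 0.408) except with the bulb score as a covariate (0.54, adjusted p 0.0404).

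On the lower side, no protein-coding gene passed. Kcnab3, a beta subunit of voltage-gated potassium channels, was at 1688 to 2862 in WT and 1011 to 1600 in HT mice, with no overlap (-0.51, SE 0.11, adjusted p 0.102). Fbxw10, an F-box protein gene, was at 18.5 to 36.6 in WT and 7.74 to 17.5 in HT mice (-1.04, SE 0.21, adjusted p 0.0969). Nrep was at 1532 to 2673 and 1083 to 1558 (-0.49, SE 0.097, adjusted p 0.0840). Bckdhb, a subunit of the dehydrogenase that breaks down branched-chain amino acids, was at 373 to 546 and 258 to 436 (-0.53, SE 0.11, adjusted p 0.146). With the bulb score as a covariate, Kcnab3 was at -0.40, Fbxw10 at -0.89, Nrep at -0.37 and Bckdhb at -0.37. Rspo1, a secreted amplifier of Wnt signalling, differed by -1.27 in vehicle and -0.51 in fluoxetine mice, and by -0.89 over both (SE 0.20, adjusted p 0.163). WT-Flx replicate 4, at 85.3, lay below all HT mice, which were at 85.6 to 159, and the other 7 WT mice lay above them, at 169.8 to 306. Rspo1 passed without that mouse (-1.07, adjusted p 0.0109) and without the 5 libraries, which include it (-1.31, adjusted p 0.0152). Gm38226, listed at 0 in 5 HT mice and at 12.4 to 77.8 in WT mice, did not pass over both treatments either (adjusted p 0.0786). It passed in fluoxetine mice alone (limma adjusted p 0.0018), where every HT mouse was at 0, and not in vehicle mice (0.922). Its interaction did not pass (adjusted p 0.998), and 92.1% of its 31-base stretches occur in Noct.

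Among the remaining genes with no overlap between genotypes, which were named after their values were seen, were several with known roles in calcium handling, metabolism or synapses. Orai2, a subunit of store-operated calcium channels, differed by 0.36 (SE 0.080) and Hpcal4, a neuronal calcium sensor, by 0.27 (SE 0.061). Phgdh, the first enzyme of serine synthesis from glucose, differed by -0.31 (SE 0.071), and Sncb, beta-synuclein of presynaptic terminals, by -0.23 (SE 0.060). Parl, a protease of the inner mitochondrial membrane, differed by -0.32 (SE 0.069). None of the 5 passed the adjusted threshold, and their values with the bulb score as a covariate are not given here.

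The genotype difference was then set side by side between the treatments, which share no mouse. Of 16832 genes tested in vehicle mice alone 3 passed, and of 16788 in fluoxetine mice alone 7 passed. The 3 were Ccdc3, Fam220a and Rspo1, of which none was among the 7 genes of the pooled fit. Of the 7 in fluoxetine mice, 2 were, Gm48583 and Tmem181b-ps. The others were AC123659.1, Gm38226, Gm38317, Gm49601 and Tmem181c-ps. Over both treatments, 5 genes passed with the bulb score as a covariate (Ankrd63, Arid1b, Gm48583, Otof and Tmem181b-ps) and 4 without the 5 libraries (Arid1b, Myl4, Otof and Rspo1). The interaction, which tests whether the difference itself depended on treatment, was passed by 0 of 17567 genes in limma. Its smallest adjusted p was 0.596, and 754 genes (4.29%) had an unadjusted p under 0.05. Across all genes, the vehicle and fluoxetine differences had a Pearson r of 0.21 and a Spearman rho of 0.27, and 61.5% had the same sign. Without the 5 libraries rich in bulb RNA, r was 0.036, rho 0.071 and the share of equal signs 52.8%. The fluoxetine difference of every gene then rests on a lone WT mouse, WT-Flx replicate 3, and what lowered these values was not tested. Genes are not independent replicates, so these values describe the libraries. Otof, Arid1b, Ddn, Smad3 and Dynlt1c lay close to equal differences in both treatments, and Rspo1, Tmem181c-ps and Hdac4 farther from it.

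**Figure D4:**
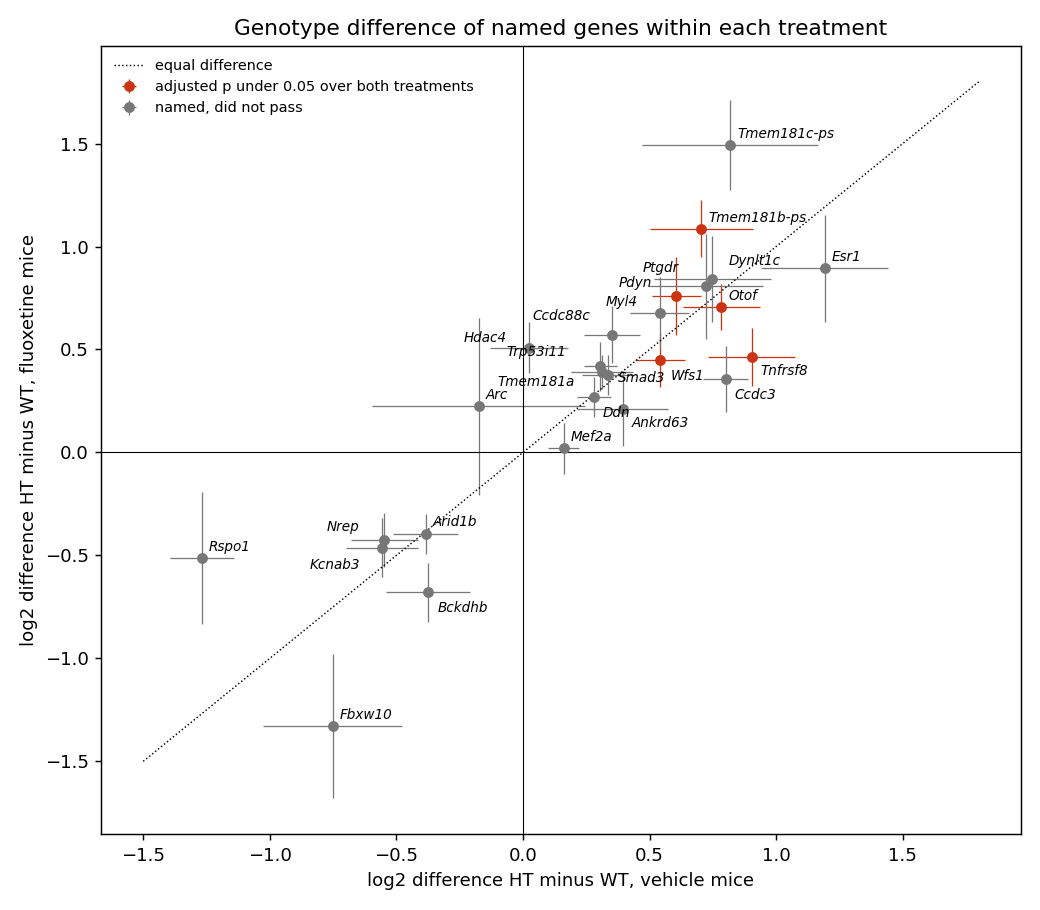
Log2 difference, HT minus WT, in vehicle mice (horizontal axis) against that in fluoxetine mice (vertical axis) for the named genes, with SE bars and a dotted line of equal difference. Gm48583, Gm38226 and Gm48678, with differences beyond these axes, are left out, and the called genes (red) lie at the upper right, from 0.54 to 0.90 in vehicle and 0.45 to 1.09 in fluoxetine mice.

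The pathway the study examined, in which the deacetylase Hdac4 holds back the transcription factor Mef2a and with it synaptic genes such as Arc, held no gene that passed over both treatments. Hdac4 was at 1316, 1601 and 2204 in the lowest, median and highest WT mouse and at 1728, 1988 and 2801 in HT mice (0.27, SE 0.12, adjusted p 0.402). Its difference was 0.024 in vehicle and 0.51 in fluoxetine mice, and it was 0.10 with the bulb score as a covariate. Mef2a was at 4044 to 5682 in WT and 4210 to 5906 in HT mice (0.091, SE 0.073, adjusted p 0.606). Arc, an activity-induced gene of the postsynapse, ran from 1974 to 6079 in WT and from 1373 to 10420 in HT mice, and its difference of 0.024 (SE 0.33, adjusted p 0.982) had no stable sign. None of the 8 tested genes of the pathway list and none of the 10 fragile X targets that the study had named passed, and 1 and 3 of them had an unadjusted p under 0.05. On the higher side these were 12.5% of the pathway list and 20% of the targets, against 6.42% of all genes. On the lower side they were 0% and 10%, against 5.44%. The median differences of these lists were 0.057 and 0.065, and -0.00099 and -0.031 with the bulb score as a covariate.

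Of the 30 SWI/SNF subunits, none passed. At an unadjusted p under 0.05, 2 were on the higher side (6.67%, against 6.42% of all genes) and 4 on the lower (13.3%, against 5.44%). The median difference was -0.019, against 0.0044 for all genes. Besides Arid1b, the lower side held Bcl11a, a transcription factor and BAF subunit of cortical neurons (-0.25, SE 0.066, adjusted p 0.244), Smarcd1 (-0.20) and Bcl7b (-0.14). The higher side held Bcl7a (0.20, SE 0.056, adjusted p 0.268) and Smarcc1, a core subunit (0.19, SE 0.060, adjusted p 0.298). With the bulb score as a covariate, Bcl11a was at -0.15, Smarcd1 at -0.085 and Bcl7b at -0.098, and without the 5 libraries Smarcc1 was at 0.11.

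No gene of energy metabolism or protein synthesis passed, but the lists leaned to one side. Of 78 genes of the nuclear-encoded respiratory chain, 74 had a negative difference and 17 of these an unadjusted p under 0.05 (21.8%, against 5.44% of all genes), with 0 on the higher side. Ndufa5, a subunit of complex I, was at 1286 ± 209 in WT and 1013 ± 67.4 in HT mice (-0.33, SE 0.085, adjusted p 0.243), and Ndufs1 at 3403 ± 332 and 2895 ± 202 (-0.23, SE 0.061, adjusted p 0.244). Mitochondrial ribosomal proteins had a negative difference for 72 of 78, with 9 at an unadjusted p under 0.05 (11.5%), and cytoplasmic ribosomal proteins for 64 of 80, with 8 (10%). The medians of these lists were -0.099, -0.10 and -0.063. These 3 medians moved toward 0 with the bulb score as a covariate, to -0.041, -0.041 and 0.029, and without the 5 libraries, to -0.027, -0.0097 and 0.046, so that the sign for cytoplasmic ribosomal proteins turned. With the covariate, 6 genes of the nuclear-encoded respiratory chain had an unadjusted p under 0.05 on the lower side. So did 2 of the mitochondrial and 3 of the cytoplasmic ribosomal proteins. Over all 17567 genes this count was 451 with the covariate, against 955 without it. Ndufa5 was at -0.18 without the 5 libraries. The 13 respiratory chain genes encoded in mitochondria had a median of 0.048, which turned to -0.050 with the covariate, with 0 at an unadjusted p under 0.05 in either direction.

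Neuropeptide precursors were split. Pdyn rose, while 15 of 19 had a negative difference and 6 of these an unadjusted p under 0.05 (31.6%, against 5.44% of all genes). The covariate left 2 on the lower and 3 on the higher side. Npy, a peptide of cortical interneurons, was at 2402 ± 305 in WT and 1971 ± 224 in HT mice (-0.28, SE 0.085, adjusted p 0.288), Pnoc, the nociceptin precursor, at 134 ± 21.8 and 101 ± 16.9 (-0.41, SE 0.13), and Cort, cortistatin, at 91.5 ± 21.3 and 63.8 ± 23.0 (-0.57, SE 0.22). With the bulb score as a covariate these 3 were at -0.27, -0.33 and -0.43, and the list median went from -0.28 to -0.018. Trh, the precursor of thyrotropin-releasing hormone, was at 173 ± 206 in WT and 34.0 ± 40.4 in HT mice, and its difference went from -1.64 to -0.17.

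Receptors and synaptic genes had more members on the higher side, none past the adjusted threshold. Of 25 ionotropic glutamate receptor genes and auxiliaries, 5 had an unadjusted p under 0.05 on the higher side (20%, against 6.42% of all genes) and 0 on the lower, and these counts were 4 and 0 with the bulb score as a covariate. The 4 were Grin3a, Grik4, Cacng8 and Grin2c, while Grin2b and Gria3 were no longer among them. Grin2c was at 0.057 without the covariate and 0.18 with it. Grin3a, an NMDA receptor subunit that limits calcium entry, was at 987 ± 93.9 in WT and 1251 ± 136 in HT mice (0.34, SE 0.077, adjusted p 0.159), and it was at 0.40 without the 5 libraries. Grik4, a kainate receptor subunit, was at 700.0 ± 111 and 859 ± 50.3 (0.31, SE 0.091, adjusted p 0.269), or at 0.18 with the covariate, Cacng8, an AMPA receptor auxiliary, differed by 0.18 (0.28 without the 5 libraries), and Grin2b by 0.41, or by 0.19 with the covariate. Of 25 synaptic adhesion and scaffold genes, 5 were on the higher side (20%), among them Shank3 (0.20, SE 0.072) and Dlg2 (0.28, SE 0.12), and 1 on the lower (4%), Gphn (-0.18, SE 0.067). Without the 5 libraries Shank3 was at 0.063 and Dlg2 at 0.066. The medians of these lists were 0.049 and 0.088, while 13 GABA-A receptor subunits had a median of 0.072, with Gabrb1 (0.38) and Gabra4 (0.15) on the higher (15.4%) and Gabra5 (-0.25) on the lower side (7.69%), and 12 perineuronal net genes one of 0.13, with Tnr (0.41) and Hapln1 (0.33) on the higher side (16.7%). Of 12 serotonin receptors, Htr2a (0.27, SE 0.10) and Htr6 (0.29, SE 0.12) had an unadjusted p under 0.05 (16.7%), and of 7 neurotrophins and receptors, Ntrk3 (0.21) and Sort1 (0.14) had one (28.6%). With the covariate, the serotonin receptors at an unadjusted p under 0.05 were Htr2a and Htr2c (0.37, against 0.098 without it). Under the covariate, no member of the adhesion and scaffold, GABA-A, perineuronal net or neurotrophin lists had an unadjusted p under 0.05 in either direction. Gabrb1 was then at 0.17, Gabra5 at -0.087, Gphn at -0.092, Tnr at 0.16, Hapln1 at 0.18, Ntrk3 at 0.077 and Sort1 at 0.061. Of the serotonin receptors, 2 had an unadjusted p under 0.05 with the covariate and 0 without the 5 libraries, and Htr6 was at 0.18 with the covariate.

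Markers of cell types were counted as lists, and in bulk tissue fewer cells of a type and less RNA per cell cannot be told apart. Of 15 markers of upper-layer projection neurons, Rasgrf2 (0.48, SE 0.11, adjusted p 0.191), Calb1 (0.25, SE 0.061, adjusted p 0.191), Kitl (0.21) and Unc5d (0.29) had an unadjusted p under 0.05, all on the higher side (26.7%, against 6.42% of all genes), and the list median was 0.067. The bulb score as a covariate gave 2 on the higher and 1 on the lower side and a median of 0.0038, with Rasgrf2 at 0.29 and Unc5d at 0.11, and Kitl was at 0.14 without the 5 libraries. Calb1, the calcium buffer calbindin, was at 3369 ± 315 in WT and 4013 ± 260 in HT mice. Of 17 deep-layer markers, Rxfp1 (0.40) was on the higher side (5.88%) and Pcp4 (-0.33), Cplx3 (-0.27) and Fam84b (-0.26) on the lower (17.65%, against 5.44% of all genes), and the median was -0.073. Rxfp1 was at 0.19 and Pcp4 at -0.15 with the covariate, which left 0 on the higher and 1 on the lower side. Of 18 interneuron markers, 2 were on the higher (11.1%) and 4 on the lower side (22.2%, against 5.44% of all genes), or 2 and 2 with the covariate. The latter were Nos1 and Crh on the higher and Npy and Pvalb on the lower side, of which Crh and Pvalb were not in the first counts. Crh was at 0.22 without the covariate and 0.38 with it. Pvalb was at -0.21 without it and -0.43 with it, and at -0.49 in vehicle and 0.062 in fluoxetine mice. Nos1, neuronal nitric oxide synthase, differed by 0.46 (SE 0.12, adjusted p 0.233), and Gad1, which makes GABA and is abundant in the bulb, by -0.46, or by -0.098 with the bulb score as a covariate.

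Among glia, 6 of 16 microglia markers had an unadjusted p under 0.05 on the higher side (37.5%, against 6.42% of all genes) and 0 on the lower. The count was 2 with the bulb score as a covariate and 4 without the 5 libraries. They were Gpr34 (0.22, SE 0.072, adjusted p 0.319), Itgam (0.27), P2ry12 (0.24), Csf1r (0.34), Fcrls (0.23) and Cx3cr1 (0.16), of which Csf1r was at 0.14, P2ry12 at 0.15, Cx3cr1 at 0.084 and Fcrls at 0.32 with the covariate. The list median was 0.034, since 6 of the 16 had a negative difference, 0.085 with the covariate and 0.088 without the 5 libraries. The 21 genes of the oligodendrocyte lineage had a median of -0.15, which was -0.23 without the 5 libraries. Olig1 (-0.18), Sox10 (-0.23) and Cldn11 (-0.27) were on the lower (14.3%, against 5.44% of all genes) and Gpr17 (0.24) on the higher side (4.76%). With the covariate 2 were on the lower and 0 on the higher side, and without the 5 libraries 6 and 0, with Cldn11 at -0.46, Olig1 at -0.12 and Gpr17 at 0.025. Astrocyte markers had a median of -0.037, with S100b (-0.17) alone at an unadjusted p under 0.05, and vascular and meningeal markers had 0 of 23. All 9 olfactory bulb markers and all 10 neuroblast markers had a negative difference, with medians of -1.49 and -0.66. Striatal markers had a median of -0.18 over both treatments, with 0.24 in vehicle and -0.47 in fluoxetine mice. The covariate moved the neuroblast and striatal medians to -0.077 and 0.0031. The value for the bulb markers, -0.015, was fixed in advance, since the score is the mean of these same 9 markers. Ttr, the choroid plexus gene, was at 5.57 to 243 in WT and 3.08 to 11.1 in HT mice. Its difference was -1.72 (SE 0.54, adjusted p 0.297), or -2.47 with the covariate. It was -3.045 in vehicle and -0.40 in fluoxetine mice, and its highest values were in WT-Veh replicates 2 to 4 (48.7, 74.8 and 243). The 8 genes of its list had a median of -0.30, which turned to 0.028 with the covariate. The part of these other tissues in the genotype differences was not tested beyond the fits given here.

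Wnt ligands, R-spondins and regulators, 50 genes, had 6 at an unadjusted p under 0.05 in each direction (12%). Of all genes, 6.42% were on the higher and 5.44% on the lower side. The Wnt list had a median of 0.016, or 5 on the higher and 3 on the lower side and a median of 0.075 with the covariate. With Rspo1, Rspo3 (-0.48, SE 0.14), Frzb, a secreted Wnt antagonist (-0.50, SE 0.15), and Wnt5a (-0.41, SE 0.14) were on the lower side, and Wnt2b (0.80, SE 0.26), Znrf3 (0.35, SE 0.11), Sfrp1 (0.26) and Dkk3 (0.25) on the higher. Lgr5 and Lgr6, receptors of R-spondins, were at -1.44 and -1.28, and at -0.27 and -0.29 with the bulb score as a covariate, which put Frzb at -0.26, Wnt5a at -0.23, Znrf3 at 0.22 and Dkk3 at 0.12. Rspo3 was at -0.28 without the 5 libraries. Of 30 autism-linked chromatin and transcription regulators, 24 had a positive difference with a median of 0.11, which was -0.0013 with the bulb score as a covariate. Tcf20 (0.27) and Med13l (0.28) were among 3 at an unadjusted p under 0.05 on the higher side (10%), which became 0 with the covariate, where they were at 0.13 and 0.084. Arid1b (-0.39) and Bcl11a (-0.25) were on the lower side (6.67%, against 5.44% of all genes), where the covariate also left 2 genes. Of 22 immediate early genes, Egr3 (0.44) and Homer1 (0.36) were on the higher and Ier2 (-0.43) and Jun (-0.28) on the lower side, 9.09% each way. With the covariate none was in either direction, with Jun at -0.098 and Homer1 at 0.20. Without the 5 libraries Egr3 was at 0.19 and Homer1 at 0.015. Cholesterol synthesis had 1 of 22 at an unadjusted p under 0.05 (Insig1 at -0.15, 4.5% on the lower side), and interferon response had 0 of 24. Clock genes had 2 of 18 (Npas2 at 0.34 and Tef at 0.22, 11.1% on the higher side, against 6.42% of all genes). Glucocorticoid response genes had 1 of 16 (Nr3c1 at 0.26, 6.25% on the higher side). Tef was at 0.11 and Nr3c1 at 0.10 with the covariate.

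**Figure D5:**
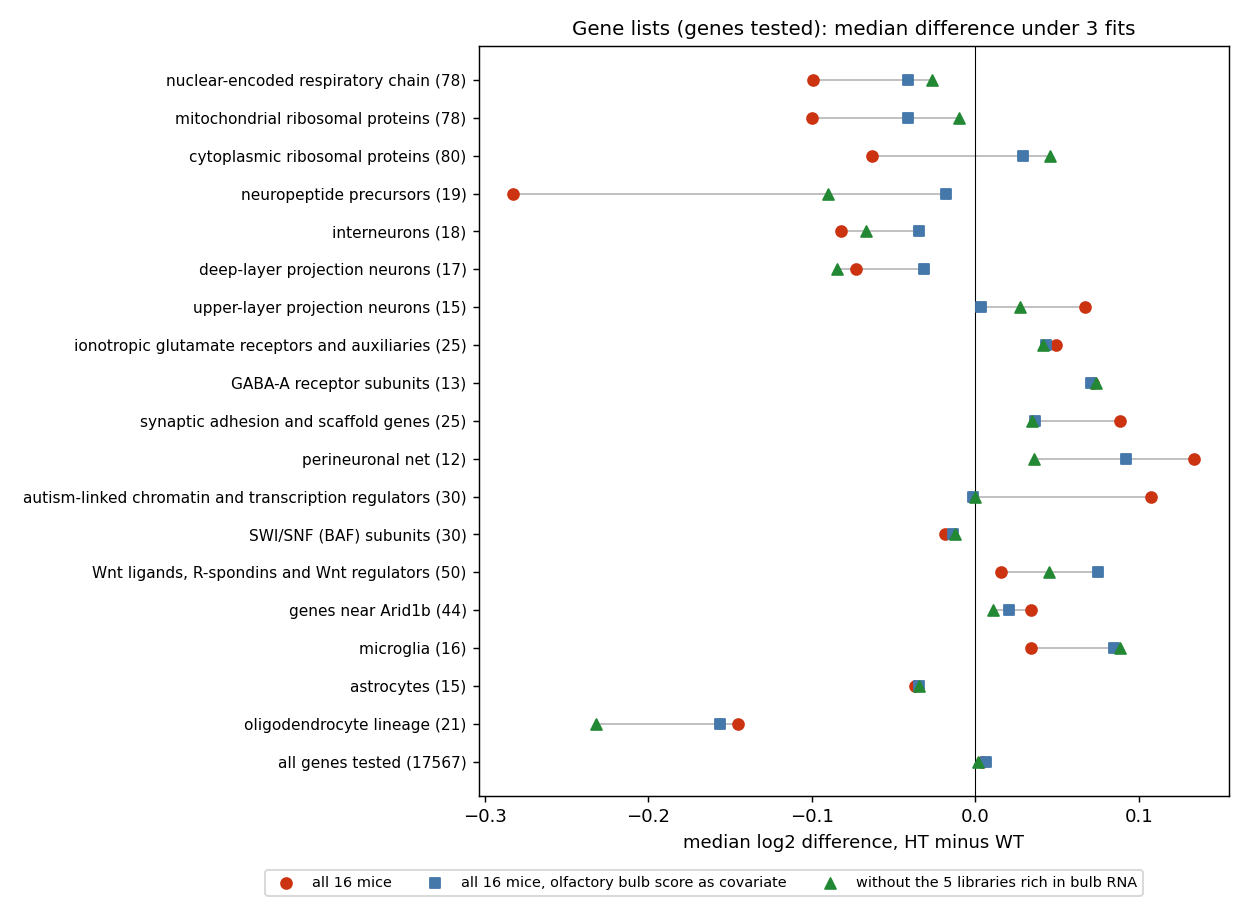
Median log2 difference, HT minus WT (horizontal axis), of each gene list with the number of genes tested in brackets, from the fit of all 16 mice (circles), with the bulb score as a covariate (squares) and without the 5 libraries rich in bulb RNA (triangles). The nuclear-encoded respiratory chain and the 2 ribosomal lists move from -0.063 or lower toward 0 or past it, while the oligodendrocyte list lies at -0.15, -0.16 and -0.23.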

How the data were processed

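RNA of the mPFC of 16 mice was sequenced by the authors as stranded poly-A libraries. Per the labels' processing notes and the study's methods, transcripts were quantified with Salmon (1.1.0) on GRCm38 and normalized in DESeq2 (1.30.1). The notes and the methods name different versions of R. The deposited signal is a normalized read count per gene, an estimated count divided by the authors' normalization factors. The values were not whole, so the depth is unknown and no interval that needs it is given. All 16 columns of 18424 genes were used, and 18411 were matched to a GENCODE symbol.

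Genotype was tested with limma (3.58.1, R 4.3.3, lmFit and eBayes with trend) on log2(value + 1), over genes at 10 or more in at least 4 samples, with treatment as a term. P-values were two-sided and adjusted over all genes by Benjamini and Hochberg (threshold 0.05). The step was tested on simulated data. Fold changes on this scale understate the change of low genes. P-values measure the spread between these mice. Because the values are no counts, no count model was run.

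Genes were named by rule: Arid1b, Hdac4, Mef2a and Arc, up to 10 protein-coding and 4 other genes in each direction that passed, the next by p up to 5 protein-coding genes, and list members that passed (16 genes). Another 13 were chosen after their values were seen. The comparison, the gene lists, the bulb score and the 5 libraries left out were chosen with earlier results of these data known.

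Shared 31-base stretches were counted in GENCODE transcripts, and promoters came from RefSeq, where 18 of 29 named genes matched. Alternative settings were a pseudocount of 0.1 or 8, no filter, a mean of at least 100, upper-quartile and quantile normalization, no treatment term, the interaction in the fit, the replicate number as a block, the bulb score, no trend, sample quality weights, vehicle or fluoxetine mice alone, and leaving out each mouse or the 5 libraries.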

Additional observations from a re-analysis of the deposited data

Results flagged for a closer look

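In 120 groups of 4 mice, 14 held a mouse set apart from the other 3 by Dixon's criterion, which chance meets in about 1 of 20 groups. In WT-Veh, Gm48583 was listed at 0 in replicate 2 against 18.5 to 22.4 in the others. In WT-Flx, it was at 15.9 in replicate 4 against 25.7 to 28.1. WT-Veh replicate 1, with the highest olfactory bulb score of its group (9.50, against 3.92 to 4.67), had low values of Tmem181b-ps (2520, against 4800 to 5385), Tmem181a (2262, against 3285 to 3450) and Hdac4 (1316, against 2046 to 2204). HT-Veh replicate 4 stood apart in its bulb score (7.66, against 3.97 to 4.59) and in Dynlt1c (205, against 130.5 to 139).

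HT-Flx replicate 3 was high in Tnfrsf8 (247, against 203 to 207) and Ddn (45790, against 38740 to 39360). WT-Flx replicate 4 was high in Tnfrsf8 (177, against 147 to 151). HT-Flx replicate 2 was high in Hdac4 (2801, against 1955 to 2004). Arid1b in HT-Flx was lowest in replicate 4 (1545, against 1661 to 1671), and Mef2a in HT-Veh was lowest in replicate 3 (4733, against 5063 to 5085). What sets these mice apart was not tested.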

How the results depend on the processing

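The 7 genes called became 4 without the trend, 23 with sample quality weights, 4 without the 5 libraries and 3 in vehicle mice alone, and stayed within 1.5 times under the other planned settings (5 to 10), though not with the same genes. No trend lost Pdyn, Tnfrsf8, Wfs1 and Tmem181b-ps, no treatment term lost Tnfrsf8 and Wfs1, a pseudocount of 0.1 lost Gm48678, and the replicate block lost Tnfrsf8. Leaving out 1 mouse gave 1 (without WT-Flx replicate 2) to 13 (without WT-Veh replicate 4). Otof passed in 13 of 15 alternatives, all but the fits of 1 treatment. Pdyn was lost without WT-Veh 1 or 2, WT-Flx 2 or 3, HT-Veh 1, 2 or 3, or HT-Flx 1, 2 or 3 (adjusted p up to 0.0920). Tnfrsf8 and Wfs1 were also lost without WT-Veh 3, while Tnfrsf8 alone held without HT-Veh 2, and Gm48678 was lost without these and WT-Flx 4.

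Arid1b passed with quantile normalization (-0.41, adjusted p 0.0463), the bulb score (-0.48), quality weights (-0.46) and without the 5 libraries (-0.46), and ranged from -0.45 (without WT-Veh replicate 1) to -0.35 when 1 mouse was left out, passing only in the first of these fits (adjusted p up to 0.226). The interaction called 0 genes in every fit but that without the 5 libraries, which called 2 and rests on a lone WT-Flx mouse. Leaving out 1 mouse gave 0 to 0. The sign of Arc reversed with quantile normalization (-0.0030), the bulb score (-0.12), quality weights (-0.32), without the 5 libraries (-0.55), in vehicle mice alone (-0.18) and in 7 fits that left out 1 mouse (-0.18 at the lowest, without HT-Flx replicate 3, and 0.26 at the highest). Of 862 values of named genes under alternatives, 733 kept direction and side of the threshold, 75 lost and 42 gained the call, and 12 reversed, all for Arc. Of 1022 list medians, 1017 moved by less than the spread between mice of a group in the mean of the list. That spread includes the differences in bulb RNA, so this count does not show that the medians were stable. With the bulb score as a covariate, the median of the cytoplasmic ribosomal proteins went from -0.063 to 0.029. Gm48583 and Gm48678 gave no value under a mean of at least 100. The causes were not tested.

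The replicate numbers belong to different mice, and the deviations of same-numbered mice correlated little (mean r 0.056, range -0.23 to 0.31). With the replicate number as a block, 8 genes were called, and Tnfrsf8 was not among them (adjusted p 0.0584). No depth is known, so limits of detection cannot be given.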
